A study of Mus musculus with 12 samples.

Results

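The promoters of 80 cytoplasmic ribosomal protein genes were examined among the promoters of 21938 protein-coding genes. Members were the protein-coding genes whose mouse symbol is Rpl or Rps followed by a number, with at most 1 further letter (or the suffix x or l), together with Rplp0, Rplp1, Rplp2 and Rpsa. The ribosomal S6 kinases and pseudogenes were left out. There were 49 genes of the large subunit and 31 of the small subunit, and 3 of them (Rpl3l, Rpl10l and Rpl39l) are paralogs known for expression in few tissues. A promoter was the window of 1 kb on each side of the annotated start of the gene record, 2001 bp in all. The readouts were taken from each window: whether an accessible domain overlapped it by at least 1 bp, and how many bp of it domains covered.

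Chromatin accessibility was measured by ATAC-seq, in which a transposase cuts open chromatin, during the differentiation of mouse embryonic stem cells into motor neurons. Embryoid bodies (EBs) and day 2 progenitors came from the parental line Ainv15(iCre), and progenitors had received retinoic acid (RA, 1 µM) and the Hedgehog agonist SAG (0.5 µM) for 2 days. The iHoxc6, iHoxc9 and iHoxc10 samples came from the lines Ainv15(iFlag.Hoxc6), Ainv15(iFlag.Hoxc9) and Ainv15(iFlag.Hoxc10), had 4 days of RA and SAG, and were induced with 3 µg/mL doxycycline (Dox) over the final 48 h. The no Dox control was the iHoxc6 line at day 4 with RA and SAG alone. Each line carries 1 Flag-tagged Hox transgene in a defined locus, so each Hox factor is represented by 1 engineered line, and the cultures at day 4 hold motor neurons together with interneurons. Every group (6 in all) is represented by 2 samples pooled into 1 domain list, so the values have no replicate error and no difference could be tested against the spread between replicates.

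The lists held 56232 (iHoxc10) to 94875 (EB) domains and covered 17.8 Mb (iHoxc9) to 29.7 Mb (no Dox). Read depth is unknown. Neighbouring domains were at least 201 bp apart in 4 lists, 103 bp in progenitors and 37 bp without Dox, and the no Dox list has another column layout than the rest. The no Dox list was also added in another series of sample records, and the settings of the domain caller are not given in the sources used here. The name of the no Dox list also carries a p threshold, which the other 5 names do not, so it may have been called otherwise. Series and calling therefore cannot be told apart from the absence of Dox. Cell line differs between no Dox and iHoxc9 or iHoxc10, but not between no Dox and iHoxc6, and it cannot be told apart from stage between day 2 and day 4. Of 6 pluripotency genes, 5 had a promoter domain in EBs, 2 in progenitors and 1 in each day 4 list. Of 6 motor neuron genes, 4 to 6 had one in each list, so these did not separate the stages. Domains covered 77.2% of the Hoxc6 coding sequence in iHoxc6 against 0% without Dox, and 45.6% of that of Hoxc10 in iHoxc10 against 0% without Dox. For Hoxc9 the cover was 60% in iHoxc9 and 17.9% without Dox, but 62.7% in the progenitors, so this gene does not check its label.

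Ribosomal proteins assemble with ribosomal RNA into the large and small subunits of the ribosome, which translates mRNA in every cell. Their genes are transcribed at high levels in nearly all cell types, from promoters known for starting at a cytidine within a run of pyrimidines. Such starts give mRNAs a terminal oligopyrimidine tract, through which mTOR signalling controls their translation. Because these promoters are open in most cells, they were chosen as a reference to set beside the number of domains in a list and their width. How far they followed these is described below.

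RefSeq promoter sequences (GRCm38.p6, 250 bases before to 50 after a start) could be matched to 60 of the 80 genes and to 16478 other protein-coding genes, by symbol, chromosome and strand, taking the entry nearest to the gene start. The start was a C followed by 4 pyrimidines in 12 of the 60 (20%, 95% Wilson interval 11.8 to 31.8) and in 350 other promoters (2.12%). The 12 genes were Rpl14, Rpl15, Rpl28, Rpl35, Rpl38, Rplp2, Rps10, Rps15a, Rps18, Rps21, Rps27 and Rps6. The call rests on the exact base annotated as the RefSeq start. That start lay 3553 bp downstream of the gene start for Rps24, 2614 for Rpl18 and 1947 for Rps2. The interval does not cover errors in start position, so the remaining genes are not shown to lack such a start. Strings were searched on both strands over the 300 bases. The ETS string CCGGAAG was in 24 of 60 (40%), against 12.3% of all promoters matched. The string TCGCGAGA was in 9 (15%), against 1.58%, and the YY1 string AANATGGC in 10 (16.7%), against 6.75%. The Sp1 string GGGCGG was in 35 (58.3%), against 48.2%. The CRE string TGACGTCA was in 5 (8.33%), against 2.42%.

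Other strings were about as frequent as elsewhere or less so. The E-box CACGTG was in 5 of 60 (8.33%), against 8.1% of all promoters. TATAAA was in 5 (8.33%), against 12.9%. The posterior Hox string TTTATNG was also in 5, against 10% of all promoters, and the central Hox string TAATTA in 1 (1.67%), against 4.6%. TTTATNG read on the other strand can overlap TATAAA, and the remaining strings do not hold one another. The median GC content was 57% in the ribosomal protein promoters and 57% in the others, while the median number of CpG dinucleotides per 300 bases was 21 and 14. A match to a string is a description of the sequence and does not show that a factor is bound.

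The next 4 promoters are shown as examples: Rpl38 and Rps4x had much more cover in progenitors than in EBs, and Rps2 and Rps10 were covered around a start other than the gene start. Each runs from 150 bases before the RefSeq start to 15 bases after it, 5′ to 3′, from RefSeq on GRCm38.p6. Capitals mark the ETS, Sp1 and TATA strings named above, on either strand, and, where the RefSeq start is a C followed by 4 pyrimidines, the pyrimidine run from that start. They lie at chr11:114668430-114668594 (plus strand), chrX:102189377-102189541 (minus strand), chr17:24719913-24720077 (plus strand) and chr17:27635230-27635394 (minus strand), and the last 15 bases of each are transcribed.
Rpl38: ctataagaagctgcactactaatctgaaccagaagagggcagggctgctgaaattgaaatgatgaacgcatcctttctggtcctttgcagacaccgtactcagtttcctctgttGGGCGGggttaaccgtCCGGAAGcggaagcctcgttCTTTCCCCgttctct
Rps4x: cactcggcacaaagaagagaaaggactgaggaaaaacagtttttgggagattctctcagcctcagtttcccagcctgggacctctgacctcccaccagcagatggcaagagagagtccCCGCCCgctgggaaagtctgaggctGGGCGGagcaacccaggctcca
Rps2: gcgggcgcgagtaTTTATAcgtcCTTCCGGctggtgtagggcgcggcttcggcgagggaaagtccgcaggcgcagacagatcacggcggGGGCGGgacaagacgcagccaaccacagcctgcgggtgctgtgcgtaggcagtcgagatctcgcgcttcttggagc
Rps10: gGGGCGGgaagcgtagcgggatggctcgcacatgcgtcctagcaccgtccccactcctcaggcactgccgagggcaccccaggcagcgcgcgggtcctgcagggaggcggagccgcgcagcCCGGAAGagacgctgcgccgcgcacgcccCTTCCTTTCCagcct
All 165 bases shown for Rpl38, Rps2 and Rps10 lay in a domain in each of the 6 lists. Of those of Rps4x, domains covered 41 bases in EBs, 114 in progenitors, 115 in no Dox and 112, 141 and 114 in the iHoxc6, iHoxc9 and iHoxc10 lists.

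The 3 paralogs with restricted expression are shown beside them because their promoters were without a domain in nearly all lists. They lie at chr12:66284387-66284551 (minus strand), chr17:24727676-24727840 (plus strand) and chr16:10170078-10170242 (plus strand), and capitals again mark string matches.
Rpl10l: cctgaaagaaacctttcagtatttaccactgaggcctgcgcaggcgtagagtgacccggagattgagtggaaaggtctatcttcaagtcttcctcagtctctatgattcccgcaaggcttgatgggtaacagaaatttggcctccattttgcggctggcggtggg
Rpl3l: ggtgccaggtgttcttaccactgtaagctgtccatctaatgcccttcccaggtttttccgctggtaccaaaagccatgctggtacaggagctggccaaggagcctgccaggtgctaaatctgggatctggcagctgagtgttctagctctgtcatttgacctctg
Rpl39l: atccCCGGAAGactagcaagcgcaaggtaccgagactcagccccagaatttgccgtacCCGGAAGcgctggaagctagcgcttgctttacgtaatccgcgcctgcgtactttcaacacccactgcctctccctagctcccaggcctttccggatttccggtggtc
The Rpl10l and Rpl3l stretches held none of the 9 strings and neither start was an oligopyrimidine start, while Rpl39l held CCGGAAG in 2 places. The stretches held 6, 1 and 13 CpG dinucleotides. All 165 bases of the Rpl10l stretch lay in a domain in EBs and none in any later list, and none of the Rpl3l or Rpl39l stretch was covered in any list.

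The first question was whether the lists differ in how many ribosomal protein promoters they hold. A domain was present at 76 of 80 in EBs (95%, 95% Wilson interval 87.8 to 98) and at 75 of 80 (93.8%, 86.2 to 97.3) in progenitors, no Dox, iHoxc6 and iHoxc10. It was present at 74 of 80 in iHoxc9 (92.5%, 84.6 to 96.5). Over all protein-coding promoters the share was 65.6% in EBs, 63% in progenitors, 62.1% in no Dox and 62.3%, 59.3% and 59% in the iHoxc6, iHoxc9 and iHoxc10 lists. The share of ribosomal protein promoters thus moved by 2 genes between lists whose numbers of domains ran from 56232 to 94875, and 74 of the 80 had a domain in every list. These intervals cover the counting of genes only.

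The 6 genes without a domain in at least 1 list were the 3 paralogs, Rpl17, Rps2 and Rps10. Rpl3l, the paralog of Rpl3 in heart and skeletal muscle, and Rpl39l, the testis paralog of Rpl39, had no domain within 1 kb of the gene start in any list. Rpl10l, which stands in for Rpl10 in male germ cells, had 627 bp covered in EBs and 0 in the 5 other lists.

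For the other 3 genes the position of the annotated start mattered. Rps2, a protein of the small subunit, had 0 covered bp around its gene start, a window that also holds the start of Rnf151. Around its principal transcript start, 1947 bp downstream, domains covered 652 bp in EBs, 764 in progenitors, 989 in no Dox and 632, 711 and 852 in the iHoxc6, iHoxc9 and iHoxc10 lists. This is the start whose sequence is printed above. Rpl17, a protein near the exit tunnel of the large subunit, likewise had 0 bp around its gene start, with the nearest domain 1603 to 1830 bp away. Around its other coding transcript start the cover was 385, 799, 802, 812, 655 and 695 bp, in the same order of lists.

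Rps10, of the small subunit, had 87 bp covered around its gene start in EBs, 551 in progenitors, 8 in no Dox and 93, 0 and 57 in the iHoxc6, iHoxc9 and iHoxc10 lists. Around its best covered coding transcript start it had 584, 724, 886, 707, 541 and 544 bp, and the same values around the RefSeq start printed above, 1425 bp downstream of the gene start. The domain nearest to the Rps10 gene start lay over it in progenitors and 19, 87 and 111 bp away in EBs, iHoxc6 and iHoxc10, but 993 bp away without Dox and 1123 bp away in iHoxc9. With every coding transcript start of a gene allowed, a choice made after seeing the data, a domain was present at 78, 77, 77, 78, 77 and 77 of the 80 genes. Leaving out the 3 paralogs, it was present at 77 of 77 in each of the 6 lists. The single later domain at a paralog, at Rpl3l in iHoxc6, covered 38 bp around another start.

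**Figure D1:**
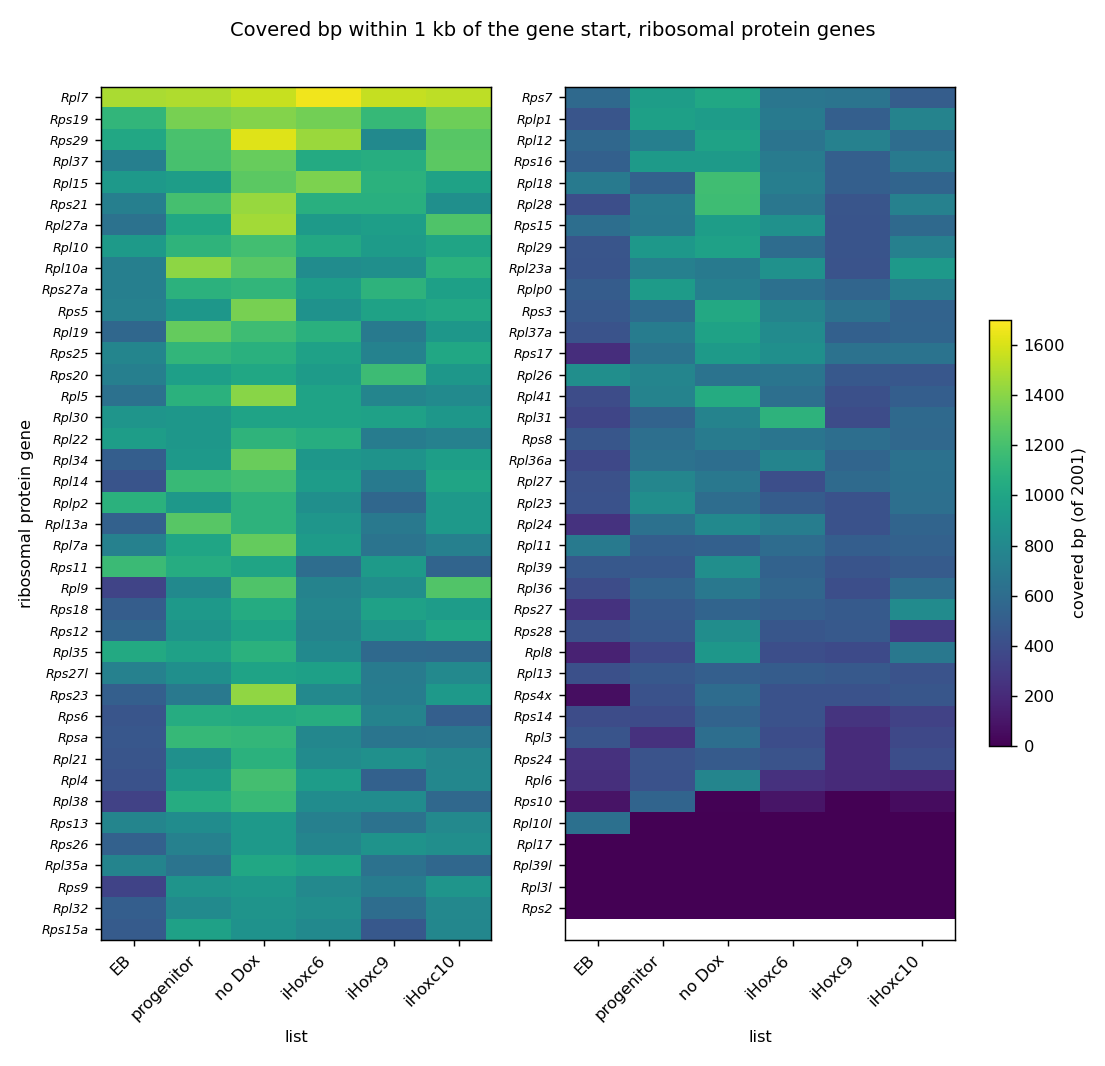
Covered bp (colour, of 2001 bp) of the promoter windows of the ribosomal protein genes in the 6 lists (1 gene is not drawn), with genes in rows, ordered by the sum over lists, and lists in columns; each cell is 1 value without replicate error. The EB column is the darkest and the no Dox column the brightest for most genes, and the 4 genes at the bottom had no domain in any list.

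The second question was how far the domains reached. The median cover of the 80 windows was 499 bp in EBs (95% order statistic interval over genes 445 to 569), 843 bp in progenitors (731 to 914) and 983 bp without Dox (917 to 1049). In the induced lists it was 784 bp (704 to 840) for iHoxc6, 625 bp (517 to 699) for iHoxc9 and 728.5 bp (606 to 798) for iHoxc10. The EB interval lay below those of progenitors, no Dox, iHoxc6 and iHoxc10, and the no Dox interval above those of all other lists. The iHoxc9 interval lay below those of progenitors and iHoxc6, the remaining pairs overlapped, and no test between lists was run. Of the 74 genes with a domain in every list, 47 had the least cover in EBs, 17 in iHoxc9, 8 in iHoxc10 and 1 each in progenitors and iHoxc6. The most cover was in the no Dox list for 50 of them and in progenitors for 11. The same counts were not made for other promoters. Summed cover relative to no Dox was 0.582 in EBs and 0.672 in iHoxc9 for these 74 genes. For the 12230 other promoters with a domain in every list it was 0.752 and 0.698, so low cover in these lists was shared.

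Among promoters with a domain, ribosomal protein genes and other genes had nearly the same median cover in 5 lists but not in EBs. In EBs it was 507 bp (446 to 614) for ribosomal protein genes and 694 bp (688 to 703) for the others. In progenitors it was 877 and 858 bp, without Dox 994 and 993 bp, in iHoxc6 800 and 802 bp, in iHoxc9 644 and 671 bp, and in iHoxc10 746 and 767 bp. Most windows of ribosomal protein genes held 1 domain (81.3% to 90.7% of those with any). Counting windows with more than 1 domain too, a domain lay over the start in 71 to 73 genes per list. In EBs the domain over the start had a median width of 505 bp (446 to 614), reaching 220 bp upstream and 285 bp downstream of the start. In progenitors it was 846 bp wide (761 to 917) and reached 363 and 461 bp. The edges moved on both sides.

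At the start itself, 96.1% of ribosomal protein promoters with a domain in EBs were covered, against 82.1% of other promoters. At 250 bp downstream the share was 55.3% in EBs, 84% in progenitors and 92% without Dox, while for other promoters it was 68.4%, 77% and 80%. In EBs the share of ribosomal protein promoters was thus above that of the others at the start and below it at 250 bp downstream. In progenitors and without Dox their share was above that of other promoters at both places. These shares were not tested against each other.

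**Figure D2:**
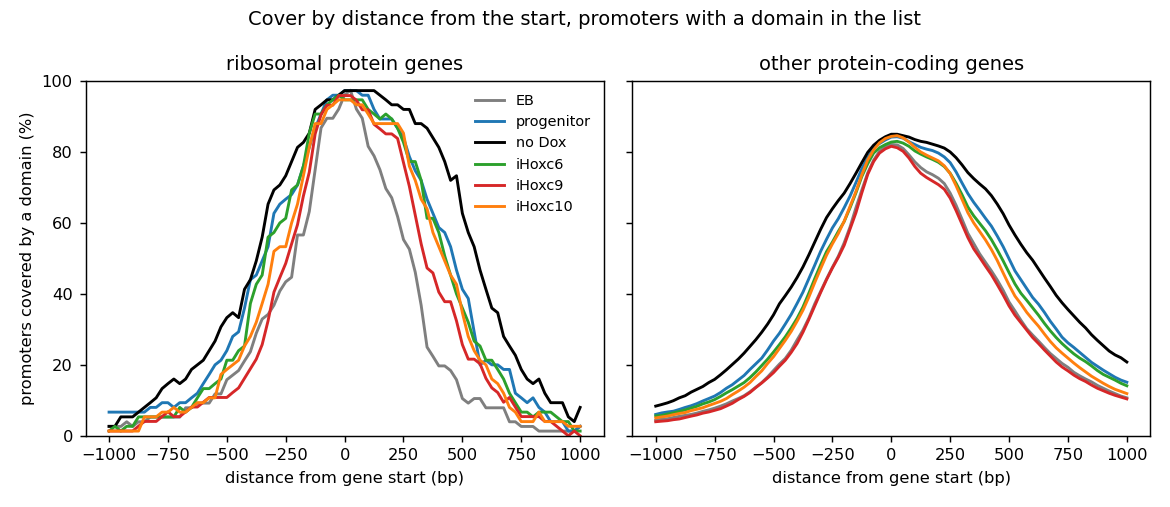
Share of promoters with a domain (vertical axis, %) in which a base at a given distance from the gene start (horizontal axis, bp, negative upstream) lay in a domain, for ribosomal protein genes (left) and other protein-coding genes (right), with 1 line per list. On the left the lines meet near the start at 94.7% to 97.3% and the EB line falls off first, to 55.3% at 250 bp downstream, while on the right EB and iHoxc9 run together.

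EBs were compared with day 2 progenitors, which share the parental line, to see what changed during patterning. Of 76 ribosomal protein promoters covered in either list, 41 (53.9%) had at least 1.5-fold more cover in progenitors and 2 (2.63%) at least 1.5-fold less, Rpl3 and Rpl10l. Over all protein-coding promoters these shares were 21.4% and 14.6%. Cover was higher to any extent in 64 and lower in 12. Of 14740 other promoters, it was higher in 9869 and lower in 4808. The median difference was 262 bp (180 to 363) and the median ratio 1.61 (1.34 to 1.78), against 92 bp (87 to 98) and 1.15 (1.15 to 1.16) in the other promoters. With each ratio divided by the median ratio of the other promoters, 30 were at least 1.5-fold larger and 4 smaller. The Rpl3 window at its gene start also holds the start of Syngr1. Around its principal start Rpl3 had 628 bp in EBs and 718 in progenitors. With principal transcript starts for all genes, 41 promoters were at least 1.5-fold larger and 1 smaller. Since each stage has 1 list, depth and other properties of these libraries cannot be told apart from stage.

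Rps4x, the X-linked small subunit protein, had 60 bp covered in EBs and 428 bp in progenitors, a ratio of 7.13. Rpl38, a large subunit protein known for its part in the translation of Hox mRNAs and in axial patterning, had 337 and 1050 bp (3.12-fold). In both, the EB value was the lowest of the 6 lists. Rpl38 later had 1147 bp in no Dox and 829, 827 and 572 in the iHoxc6, iHoxc9 and iHoxc10 lists. Rps4x had 602, 425, 425 and 453 bp in those lists. The day 4 values of Rpl38 all lay above its EB value, and so did those of Rps4x.

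Rpl24, whose mutation in mice gives the Belly spot and tail phenotype, had 247 bp in EBs and 631 in progenitors (2.55-fold). Rpsa, the small subunit protein also known as the laminin receptor, had 464 and 1137 bp (2.45-fold). In the P stalk, which recruits translation factors to the large subunit, Rplp0 had 494 and 932 bp (1.89-fold) and Rplp1 446 and 966 bp (2.17-fold). Rplp2, the third stalk protein, had 1086 and 904 bp (0.832-fold). The stalk genes thus differed in direction, and Rplp2 was already among the wider promoters in EBs.

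Rpl5 and Rpl11 bind 5S ribosomal RNA and, together, the p53 regulator Mdm2. Rpl5 had 631 bp in EBs and 1083 in progenitors (1.72-fold), while Rpl11 had 703 and 505 bp (0.718-fold). Of the X-linked genes, Rpl36a had 368 and 640 bp (1.74-fold), Rpl39 469 and 470 bp, and Rpl10 929 and 1107 bp (1.19-fold). With Rps4x these 4 X-linked genes ranged from no difference to the 7.13-fold of Rps4x. Rps27a, made as a fusion with ubiquitin, had 732 and 1095 bp, a difference of 363 bp that fell just under the 1.5-fold limit. Rps27l, a paralog of Rps27 known as a p53 target, had 749 and 846 bp (1.13-fold), and Rps27 itself 248 and 483 bp (1.95-fold). Rps19, mutated in Diamond-Blackfan anaemia, was wide in both lists with 1120 and 1349 bp.

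By subunit, 27 of 46 large subunit promoters (58.7%) had at least 1.5-fold more cover in progenitors, with a median ratio of 1.66 (1.28 to 1.87). At least 1.5-fold less was seen in 2, Rpl10l and Rpl3, the latter at its gene start only. Of 30 small subunit promoters the counts were 14 (46.7%) and 0, with a median ratio of 1.47 (1.25 to 1.79), beside 21.4% and 14.6% over all protein-coding promoters. The intervals overlap, and the 2 subunits were not told apart. Around the gene start, the 12 genes with an oligopyrimidine start had a median of 468 bp in EBs and 960.5 bp in progenitors. The 48 other matched genes had 516 and 777 bp. The oligopyrimidine call was made at the RefSeq start, which can lie elsewhere. Rps10, for example, had 87 bp around its gene start in EBs and 584 around its RefSeq start, 1425 bp downstream. The 48 include Rps2, with 0 bp at its gene start, and the 3 paralogs, and the 2 sets were not tested.

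**Figure D3:**
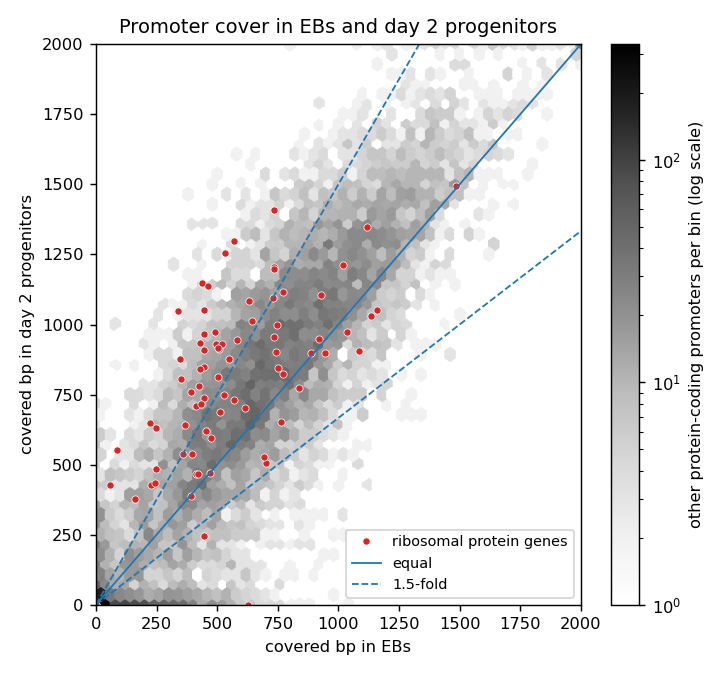
Covered bp of each promoter window in EBs (horizontal axis) and day 2 progenitors (vertical axis); red points are the ribosomal protein genes, grey hexagons the other protein-coding promoters covered in either list (shade: number per bin, log scale), the solid line marks equal cover and the dashed lines 1.5-fold. Of the red points, 41 lie on or above the upper dashed line and 2 on or below the lower.

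Promoters in the same range of EB cover were also set side by side, a choice made after seeing the data. Between 423 and 734.2 bp in EBs, the middle range of the ribosomal protein genes, 25 of 38 of these promoters (65.8%) had at least 1.5-fold more cover in progenitors, with a median ratio of 1.66. Of the other promoters in that range, 1102 of 4396 (25.1%) did, with a median ratio of 1.22. Within the range the median EB cover was 507 bp for ribosomal protein genes and 591.5 bp for the others, so the 2 groups were not alike in it. With the widest domains of each list kept up to an equal number, 42 promoters were larger and 2 smaller, and up to an equal length 40 and 2. Where the window held the start of another protein-coding gene (15 genes), 5 of 14 were larger and the median ratio was 1.39, and without such a neighbour 36 of 62 were larger and it was 1.63.

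Other genes of translation were set beside them. Of 75 mitochondrial ribosomal protein promoters covered in either list, 21 (28%) were at least 1.5-fold wider in progenitors and 1 narrower, with a median ratio of 1.25 (1.17 to 1.38). Of 37 translation factor promoters, 8 (21.6%) were wider and 0 narrower, with a ratio of 1.32 (1.2 to 1.38). Of 20 ribosome biogenesis genes, 5 (25%) were wider and 0 narrower, with a ratio of 1.27 (1.13 to 1.47). The shares of wider promoters in these groups were near or little above the 21.4% of all protein-coding promoters. The median ratios of these 3 groups lay between that of all other promoters, 1.15, and that of the ribosomal protein genes, 1.61. The median cover of translation factor promoters with a domain in EBs was 832 bp (707 to 961), above the 507 bp of ribosomal protein promoters.

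From progenitors to the no Dox control at day 4 the difference was small. Of 75 promoters covered in either list, 11 (14.7%) had at least 1.5-fold more cover at day 4 and 1 (1.33%) less, against 15.6% and 9.87% over all protein-coding promoters. The median ratio was 1.14 (1.08 to 1.28), and 1.1 in the other promoters. With lists of equal length, 14 had more cover and 8 less, and a no Dox window emptied by that cut counts as less. Among the genes with at least 1.5-fold more cover at day 4 were Rpl3, which had 245 bp in progenitors and 617 without Dox, Rpl18, with 526 and 1181 bp, and Rps23, with 688 and 1418 bp. Rpl39 had 470 and 842 bp. The 1 gene with less was Rps10, at its gene start. Rpl3 also needs its start noted, since its window at the gene record holds the start of Syngr1, and around its principal start, 8462 bp downstream, the cover was 718 bp in progenitors and 1079 without Dox.

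Each induced list was then set beside the no Dox list, which the 3 comparisons share. In iHoxc6, 17 of 75 promoters (22.7%) had at least 1.5-fold less cover and 1 (1.33%) had more, against 21.5% and 7.41% over all protein-coding promoters. In iHoxc9, 38 of 75 (50.7%) had less and 0 had more, against 46.3% and 3.21%. In iHoxc10, 25 of 75 (33.3%) had less and 1 (1.33%) had more, against 32.7% and 3.58%. The counts of narrower promoters were near the background in all 3 comparisons. The gap in these shares was wider at like cover, a choice made after seeing the data. Of 37 ribosomal protein promoters with 822 to 1178 bp without Dox, 21.6% were narrower in iHoxc6, 54.1% in iHoxc9 and 40.5% in iHoxc10. Of other promoters in that range, 19.4%, 46% and 29.2% were. The median ratios in that range lay closer, at 0.775, 0.647 and 0.757 against 0.831, 0.692 and 0.774 in the others. Neither the shares nor the ratios were tested. With lists of equal length, made by dropping the narrowest domains of the longer lists, 8 were larger and 21 smaller in iHoxc6. The counts were 7 and 37 in iHoxc9, and 7 and 27 in iHoxc10. In that setting 85% of these promoters held a domain without Dox, against 93.8% as deposited. A window emptied without Dox counts as larger in an induced list, so these counts are not read as gains. The median differences were then -203, -294 and -219 bp, against -179, -326 and -211 bp as deposited.

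The median ratio to no Dox was 0.797 (0.747 to 0.866) for iHoxc6, 0.667 (0.595 to 0.718) for iHoxc9 and 0.767 (0.71 to 0.838) for iHoxc10. In the other promoters it was 0.851, 0.705 and 0.789. The shift of the other promoters was -0.23, -0.50 and -0.34 on the log2 scale, and relative to it the ribosomal protein promoters differed by -0.09, -0.08 and -0.04. After division by the median ratio of the other promoters, 2 were larger and 4 smaller in iHoxc6, 1 and 11 in iHoxc9, and 3 and 7 in iHoxc10. The shift that the other promoters shared was thus larger in each list than the distance of the ribosomal protein promoters from it.

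The genes with the largest losses differed in part between the lines. Rpl28, of the large subunit, had 1175 bp in no Dox and 672, 446 and 748 in the iHoxc6, iHoxc9 and iHoxc10 lists. Rps23, of the small subunit, had 1418, 798, 713 and 921 bp, and Rps29, another small subunit protein, 1617, 1442, 809 and 1260 bp. In each of these the lowest of the day 4 values was in iHoxc9. Rpl28, Rps23 and Rps29 were picked for the largest losses in iHoxc9, so this order was close to built in. Rpl6, of the large subunit, had 776 bp without Dox and only 242, 201 and 192 bp in the induced lists, close to its 228 bp in EBs. Rpl27a had 1465, 928, 955 and 1233 bp. Rpl18 had 1181, 728, 515 and 551 bp, Rpl5 1399, 987, 773 and 815 bp, and Rps21 1437, 1074, 1070 and 844 bp. All 8 were lower in every induced list than without Dox, but they were picked for their losses. Of all 75 ribosomal protein promoters compared, 66 were lower to any extent in iHoxc6, 74 in iHoxc9 and 67 in iHoxc10. Of the other promoters, 10692 of 14058, 12583 of 13793 and 11799 of 13729 were lower in these lists.

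Few genes went the other way. Rpl31, of the large subunit, had 762 bp without Dox and 1096 in iHoxc6, but 398 in iHoxc9 and 579 in iHoxc10. Rpl23a had 703 bp in no Dox and 861, 433 and 910 in the iHoxc6, iHoxc9 and iHoxc10 lists, and Rpl36a 611, 766, 557 and 637 bp. Their order of lists thus differed from gene to gene. Rps27 had 549 bp without Dox and 817 in iHoxc10, with 516 and 483 bp in iHoxc6 and iHoxc9. Rps20, of the small subunit, was the only gene with more cover in iHoxc9 than without Dox, with 1165 against 1012 bp. Apart from Rps10, whose cover at the gene start was near 0, no gene gained 1.5-fold in an induced list as deposited, and Rps27 had 1.49-fold in iHoxc10.

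**Figure D4:**
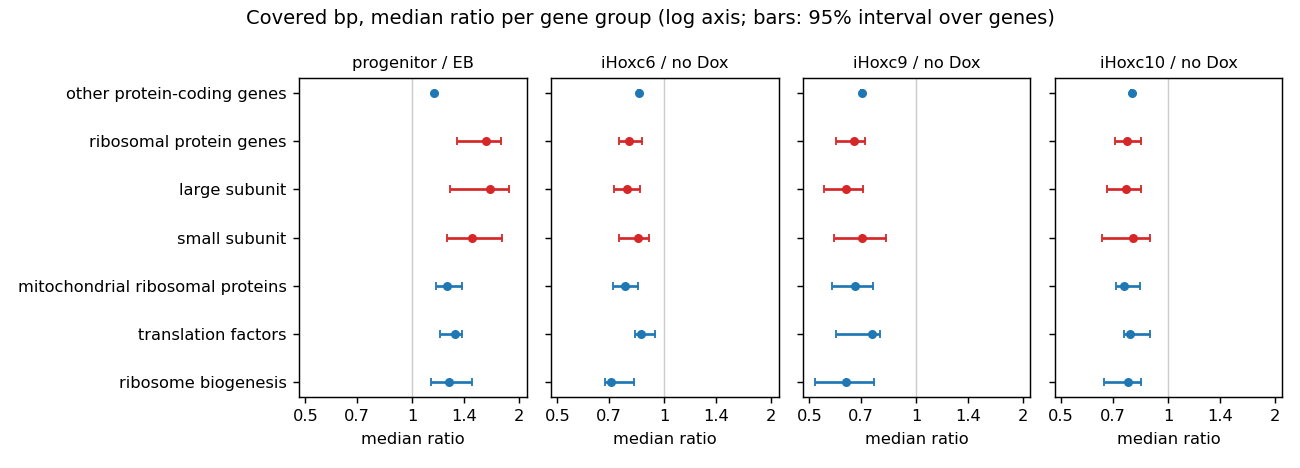
Median ratio of covered bp (horizontal axis, log scale) of progenitors to EBs and of each induced list to no Dox, for other protein-coding genes, all ribosomal protein genes, both subunits and 3 further groups of translation genes; bars are 95% order statistic intervals over genes, and the grey line marks a ratio of 1. In the first panel the ribosomal protein genes lie at 1.61 and the other genes at 1.15, while in the 3 other panels they lie at 0.797 and 0.851, 0.667 and 0.705, and 0.767 and 0.789.

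The posterior lines were also compared with each other. Of 75 promoters covered in either, 11 (14.7%) had at least 1.5-fold more cover in iHoxc10 than in iHoxc9 and 2 (2.67%) had less, against 19.6% and 8.45% over all protein-coding promoters. The median difference was 79 bp (30 to 163), and the median ratio was 1.13 (1.05 to 1.27), against 1.09 in the other promoters. Rpl23a had 433 bp in iHoxc9 and 910 in iHoxc10, and Rps29 809 and 1260 bp, while Rpl38 had 827 and 572 bp. In the P stalk, Rplp2 had 565 and 914 bp, Rplp1 517 and 762 bp, and Rplp0 556 and 719 bp, all higher in iHoxc10.

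The genes with the most and the least cover differed in how far they varied. Rpl7, of the large subunit, had the most cover summed over the 6 lists, with 1485 bp in EBs, 1495 in progenitors, 1555 in no Dox and 1664, 1550 and 1533 in the iHoxc6, iHoxc9 and iHoxc10 lists. Rps19 ranged from 1120 to 1386 bp. Rpl37, of the large subunit, ranged from 734 bp in EBs to 1303 without Dox. At the other end, Rps14 ranged from 257 bp in iHoxc9 to 544 without Dox, and Rps24 from 210 bp in iHoxc9 to 485 without Dox. Both belong to the small subunit and are genes whose best covered start was not the gene start. Around its best covered start Rps14 had 966 bp in EBs, 1117 without Dox and 689 in iHoxc9. Around its principal start, 3593 bp downstream, Rps24 had 292 bp in EBs, 969 without Dox and 745 in iHoxc9. Around its principal start, 51 bp from the gene start, Rps14 had 444, 595 and 257 bp in the same lists. Cover thus depended on the start used, but Rps14 stayed low at its principal start and Rps24 stayed low there in EBs. The window at the gene start of Rps24 also holds the start of Polr3a.

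As a reference for the lists, the cover summed over the 80 windows was set against the length of each list. Relative to no Dox, it was 0.592 in EBs, 0.848 in progenitors, 0.801 in iHoxc6, 0.672 in iHoxc9 and 0.754 in iHoxc10. For the other promoters the ratios were 0.78, 0.897, 0.839, 0.689 and 0.771, and for the whole list 0.775, 0.864, 0.833, 0.597 and 0.676. In the iHoxc9 and iHoxc10 lists, promoters of both kinds thus kept more of their cover than the list as a whole, and in EBs the ribosomal protein promoters had less of it than either. The number of domains relative to no Dox was 1.07, 0.99, 1.03, 0.715 and 0.633. Ribosomal protein promoters made up 0.191% of the covered length in EBs, 0.245% in progenitors, 0.25% in no Dox and 0.24%, 0.281% and 0.278% in the iHoxc6, iHoxc9 and iHoxc10 lists.

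**Figure D5:**
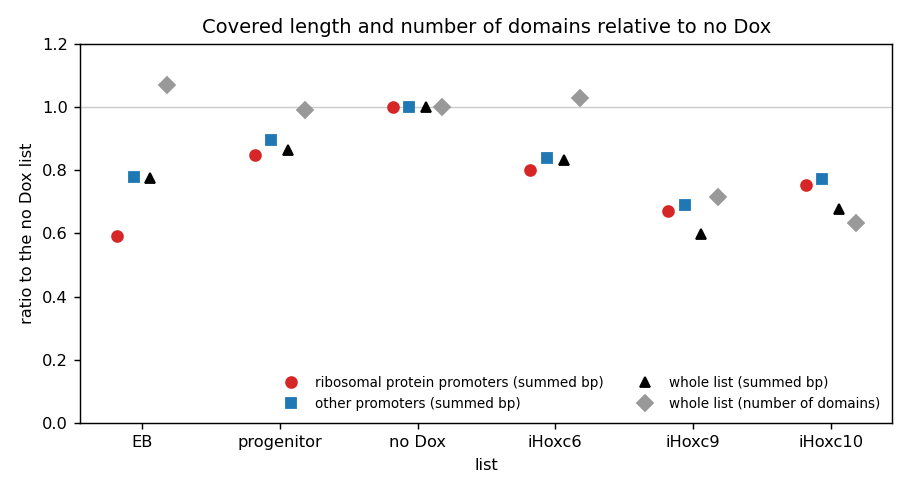
Summed covered bp of ribosomal protein promoters, of other promoters and of the whole list, and the number of domains, each divided by its value in the no Dox list (vertical axis, ratio) for the 6 lists (horizontal axis); points are single values without replicate error. Ribosomal protein promoters lie at 0.592 in EBs, under the other promoters at 0.78, and close to them in the induced lists.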

How the data were processed

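Paired-end ATAC-seq reads of 12 samples (2 per group) had been mapped to mm10 by the authors with Bowtie2 (v2.2.2), and domains had been called with DomainFinder. Picard (v2.8.2) is named without a role in the submitters' processing notes. The 6 deposited lists, 1 per group from both replicates, give each domain's coordinates in bp, with no score, read count or depth. The constant columns of the no Dox list were not used.

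Starts were read as in BED, so positions are uncertain by 1 bp. Gene starts came from GENCODE M21 (GRCm38.p6, the build of the lists), on chromosomes 1 to 19, X and Y. Covered bp and shares were computed in Python 3.11.15 with NumPy 2.4.6 and SciPy 1.17.1, and plots used Matplotlib 3.10.9. Promoters covered in either list of a pair entered a comparison, and a call was a difference of at least 1.5-fold, with cover in 1 list alone counted as a call. Intervals (95%) are Wilson intervals for shares and order statistic intervals for medians, and they cover the counting of genes only. No test across samples was possible. The overlap code was tested on simulated data, where 24 checks gave 0 differences.

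The genes, gene lists, strings and the rule for named genes were chosen with earlier results of these data known. Named were 38 genes: those without a domain in at least 1 list, the 5 with the most and the 5 with the least cover, the 3 largest gains and losses of each induced list, the paralogs, and a fixed list. Of these, 1 gene, and 1 small gene group, are not reported here. Also chosen after seeing the data were the windows at any coding transcript start, those without a neighbouring start, and the comparison at like cover.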

Additional observations from a re-analysis of the deposited data

Results flagged for a closer look

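Rps10 stood out because its cover around the gene start differed from no Dox by 85 bp for iHoxc6, by -8 bp for iHoxc9 and by 49 bp for iHoxc10. Both samples of a group share 1 list, so the difference in direction between the lines was not tested. Around the coding transcript start where Rps10 had most cover, the values were 886 bp in no Dox and 707, 541 and 544 in the iHoxc6, iHoxc9 and iHoxc10 lists, which is lower in all 3 lines.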

How the results depend on the processing

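No paired analysis was possible because each list was made from both replicates and no value per replicate could be had. Leaving out a replicate was not possible for the same reason. For 24 results under 13 other settings, 264 alternative values were computed. Of these, 239 stayed within the interval of the reported value or, for counts, within 1.5-fold, and 25 moved. A change of direction was looked for in the median differences alone, and 0 of them changed direction. With a window of 500 bp on each side, the median cover was 713 bp in progenitors and 833.5 bp without Dox. The median differences were then 50 bp from progenitors to no Dox, and -81, -203.5 and -97 bp from no Dox to iHoxc6, iHoxc9 and iHoxc10, and 10 promoters of iHoxc6 and 15 of iHoxc10 differed at least 1.5-fold. With lists of equal length, 85% of the promoters without Dox held a domain, and 22 promoters differed between progenitors and no Dox and 29 between no Dox and iHoxc6. Without the 3 paralogs, 97.4% held a domain in progenitors, no Dox, iHoxc6 and iHoxc10. With any coding transcript start allowed, 97.5% did in iHoxc6. Relative to the median difference of the other promoters, the median difference was 170 bp (88 to 271) from EBs to progenitors. From progenitors to no Dox it was 43 bp (-5 to 137). From no Dox it was -50 bp (-136 to 14) to iHoxc6, -62 bp (-127 to -9) to iHoxc9 and -16 bp (-97 to 19) to iHoxc10. From iHoxc9 to iHoxc10 it was 27 bp (-22 to 111). Only the intervals from EBs to progenitors and from no Dox to iHoxc9 left out 0. Relative to the median ratio of the other promoters, 6, 12 and 10 promoters differed at least 1.5-fold in the 3 induced lists. The count from EBs to progenitors was 33 to 44 in the 11 settings that gave one, against 43 as reported. Depth is unknown, so a promoter without a domain is one where none was called.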
